A study of Homo sapiens with 2 samples.

Results

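Alcohol dehydrogenases (ADH) and aldehyde dehydrogenases (ALDH) were compared between PLC8024 cells with and without a knockout of MAEL. The members are 10 genes chosen by name, the 6 ADH genes ADH1A, ADH1B, ADH1C, ADH4, ADH5 and ADH6 and the 4 ALDH genes ALDH1A1, ALDH1B1, ALDH2 and ALDH3A1. All 10 were found among the 58735 genes of the deposited count table. The data are 1 RNA library labelled wildtype and non-treated (MAEL WT) and 1 library labelled MAEL KO, in which sgRNA was used and the knockout was checked by Western blot and T7E1 assay. Both are labelled as Alexander cells of epithelial morphology from liver. PLC8024 is an established hepatoma line, also known as PLC/PRF/5. According to the methods, knockout cells were sorted for mCherry after transfection of an sgRNA and Cas9 plasmid and seeded for single clones, so a feature of 1 clone and an effect of the knockout cannot be told apart. With 1 library per condition no difference given here has a replicate check. Intervals reflect the error of counting and nothing else, and PCR copies could not be told from separate molecules.

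ADH enzymes oxidize alcohols such as ethanol and retinol to aldehydes, and ALDH enzymes oxidize aldehydes to acids, with NAD+ as the usual acceptor. In hepatocytes, class I ADH (ADH1A, ADH1B and ADH1C) and mitochondrial ALDH2 carry most of the flow from ethanol through acetaldehyde to acetate. ALDH1A1 is a cytosolic enzyme that turns retinal into retinoic acid, and its activity is widely used as a marker of stem-like tumor cells.

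MAEL WT had 19904136 counts in all and MAEL KO had 20833332. The detection floor of 3 counts was thus 0.151 CPM for the former and 0.144 CPM for the latter. MAEL, the targeted gene, had 1 count in MAEL WT and 0 in MAEL KO, so the labels could not be checked by its transcript. All 17 hepatocyte markers examined were detected in both libraries. ALB, the gene of serum albumin, went from 59 to 8550 counts. The summed level, in normalized counts of MAEL WT and then MAEL KO, was 1211 and 809 for 6 leukocyte markers, 254 and 191 for 6 fibroblast and stellate cell markers, 330 and 439 for 4 endothelial markers and 232 and 80.9 for 4 cholangiocyte markers. LYZ alone gave 1166 and 795 of the leukocyte sum, and PECAM1 gave 324 and 423 of the endothelial sum. SOX9 gave 150 and 78.7 of the cholangiocyte sum. Among the fibroblast and stellate cell markers, COL3A1 went from 50.3 to 147, COL1A1 from 85.8 to 11.9 and PDGFRB from 114 to 31.3. Of the summed markers, CD3E and ACTA2 were at 0 counts in both libraries. PTPRC, DCN, KDR and VWF were at 0 in MAEL KO with at most 3 in MAEL WT, and EPCAM at 0 in MAEL KO with 15 in MAEL WT. Both libraries come from the same cell line. In its bulk RNA, fewer cells that express a gene and less RNA of that gene per cell cannot be told apart.

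The sequence upstream of the gene start is shown for 5 members, because the largest contrasts below lie among the similar ADH1 genes, and because ADH5 and ALDH1A1 were the most abundant member of each family. RefSeq promoters on GRCh38.p14 were matched by symbol for 8 of the 10 members, and ALDH2 and ALDH3A1 had no entry. Each line gives the 250 bases before the RefSeq start, 5′ to 3′ on the strand of the gene, which is the minus strand for all 5. The GENCODE 29 models reach past the RefSeq start in each. Their positions are chr4:99290986-99291235 for ADH1A, chr4:99321402-99321651 for ADH1B, chr4:99352747-99352996 for ADH1C, chr4:99088789-99089038 for ADH5 and chr9:72953054-72953303 for ALDH1A1. In the ADH1 genes, capitals mark GGGTGTGG, a box of the CACCC type, and CACGTG, an E-box that USF factors bind. In ADH5 they mark GGGCGG, the GC box of SP1, read on the other strand, and in ALDH1A1 they mark CCAAT, the box of NF-Y.
ADH1A: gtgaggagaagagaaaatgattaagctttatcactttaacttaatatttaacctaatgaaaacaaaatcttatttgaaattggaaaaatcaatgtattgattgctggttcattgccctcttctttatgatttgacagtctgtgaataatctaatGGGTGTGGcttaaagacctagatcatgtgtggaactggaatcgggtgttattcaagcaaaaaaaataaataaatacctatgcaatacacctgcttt
ADH1B: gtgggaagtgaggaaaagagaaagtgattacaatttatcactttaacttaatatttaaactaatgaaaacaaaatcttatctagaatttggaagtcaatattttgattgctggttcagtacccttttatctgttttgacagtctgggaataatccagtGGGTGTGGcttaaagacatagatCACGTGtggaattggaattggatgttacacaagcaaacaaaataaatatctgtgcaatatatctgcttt
ADH1C: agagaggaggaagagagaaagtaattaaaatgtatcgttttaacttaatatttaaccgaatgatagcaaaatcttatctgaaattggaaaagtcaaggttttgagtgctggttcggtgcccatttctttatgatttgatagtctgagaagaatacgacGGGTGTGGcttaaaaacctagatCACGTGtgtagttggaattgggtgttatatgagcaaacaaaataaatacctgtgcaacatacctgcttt
ADH5: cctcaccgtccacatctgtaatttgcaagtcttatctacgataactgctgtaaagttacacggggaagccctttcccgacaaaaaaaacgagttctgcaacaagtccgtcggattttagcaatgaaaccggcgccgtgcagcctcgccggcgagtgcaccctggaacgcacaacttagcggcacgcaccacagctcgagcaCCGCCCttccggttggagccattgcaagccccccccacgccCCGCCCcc
ALDH1A1: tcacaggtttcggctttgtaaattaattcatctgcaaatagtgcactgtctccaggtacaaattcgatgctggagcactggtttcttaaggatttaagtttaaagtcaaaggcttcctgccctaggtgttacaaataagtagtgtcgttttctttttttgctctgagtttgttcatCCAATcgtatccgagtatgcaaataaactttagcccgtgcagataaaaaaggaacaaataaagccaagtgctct

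The 3 ADH1 promoters were alike. In global alignments ADH1A and ADH1B had 212 identical bases over 258 aligned positions (82.2%), and ADH1C had 207 over 254 (81.5%) with each of them. The other pairs among the 8 promoters ranged from 41.4% for ADH1B and ALDH1B1 to 55% for ADH1A and ADH4. The GC content was 31.6% for ADH1A, 32.4% for ADH1B and 35.6% for ADH1C. That of ADH5 was 58.0%, the same as the median of 35116 promoters, and those of ALDH1A1 and ALDH1B1 were 38.4% and 70.4%.

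For motifs, 7 strings were searched on both strands of the 250 bases, and no match overlapped another in the 8 promoters. GGGTGTGG was found once in each ADH1 promoter and in none of the other 5, and 2.97% of the 35116 promoters held it. CACGTG was found in ADH1B and ADH1C, in both with its first base 69 bases before the start, and in 6.34% of all promoters. ADH1A held no exact match to it. ADH1B, which had no counts in either library, held the same matches to these 2 strings as ADH1C. GGGCGG was found in ADH5 and ALDH1B1, with 2 matches each, and in 42.6% of all promoters. CCAAT was found in ADH1A, ADH1B, ADH1C, ADH4, ALDH1A1 and ALDH1B1, and in 32.0% of all promoters. TATAAA, the core of the TATA box, and GTTAAT, a part of HNF1 sites, occurred in ADH4 alone of the 8, against 10.7% and 6.23% of all promoters. TTNNGNAA, a loose form of the C/EBP site, was found in ADH1B, ADH4, ADH5 and ALDH1A1 and in 33.2% of all promoters. A match describes letters in the window and not a bound site.

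For the comparison, counts were scaled by the trimmed mean of M values (TMM), and 1 was added to both normalized counts before their ratio, MAEL KO over MAEL WT, was put on the log2 scale. A gene entered the comparison, and is called tested below, if it had at least 10 counts in at least 1 library, which held for 17887 genes with a median log2 fold change of -0.04. Of the 10 members, 9 were tested and all 9 were above 0, as were 48% of all tested genes. ADH1A, ADH1C and ALDH3A1 entered through their MAEL KO counts alone, and the other 6 had at least 10 counts in both libraries. Those 6 ran from ADH4 at 0.64 to ADH6 at 2.02, with a median of 0.84 and 1 of them, ADH6, above 2. Above a log2 fold change of 2, the fold threshold of the study, were 3 members, ADH1A, ADH1C and ADH6, against 2.16% of tested genes, and no member was below -2, against 5.64%. The study also set a cutoff on adjusted p values, which was not applied here. The split of all genes past the threshold was 387 higher and 1008 lower, and 269 and 1309 with scaling by total counts. Above 1 were 4 members, the same 3 and ADH5, against 10.2%. The median of the 9, 0.89, is the value of ALDH3A1, which had 7 and 12 counts. Scaling by total counts in place of TMM moved the median of all tested genes by -0.27 on the log2 scale. All 9 members stayed above 0 under that scaling, while ADH6 came to 1.74 and left 2 members past the threshold. The 17 hepatocyte markers were higher as well, with all 17 above 0, log2 fold changes from 0.23 to 7.36 and a summed level of 418133 normalized counts in MAEL WT and 815449 in MAEL KO. The part of this marker difference in the ADH and ALDH values was not tested.

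**Figure D1:**
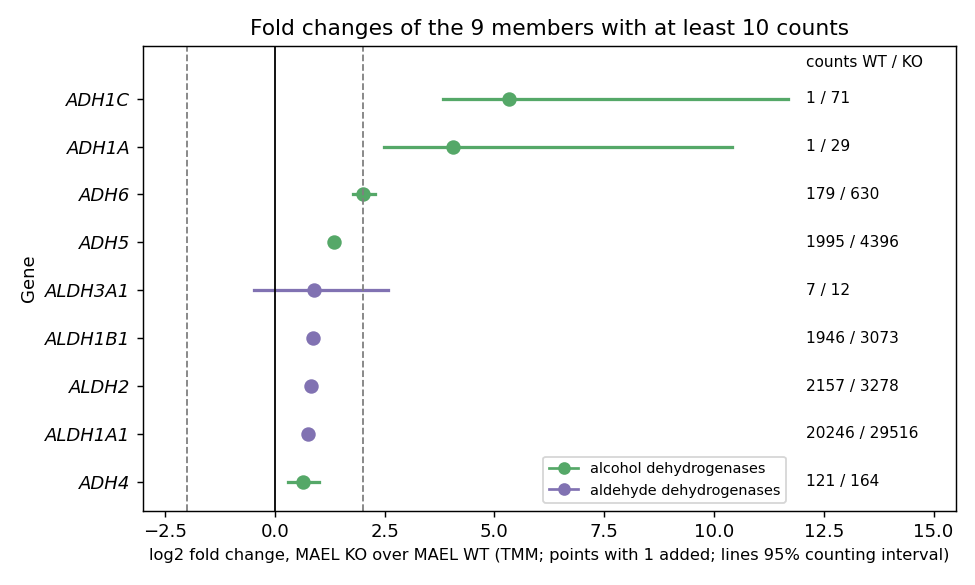
Log2 fold change of MAEL KO over MAEL WT (x axis) for the 9 members with at least 10 counts in 1 library, with 95% Clopper-Pearson counting intervals as lines, the counts of both libraries at the right, and dashed lines at -2 and 2. ADH1C and ADH1A, each with 1 count in MAEL WT, had the widest intervals, and ALDH3A1 was the one member whose interval took in 0.

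The class I genes carried the largest ratios of the members on few reads. ADH1C, on chromosome 4 of GRCh38 from 99336492 to 99353027, had 1 count in MAEL WT and 71 in MAEL KO, an 82.1-fold ratio of normalized counts (95% Clopper-Pearson interval 14.3 to 3290). ADH1A, from 99276367 to 99291028, had 1 and 29 counts, a 33.6-fold ratio (95% interval 5.56 to 1370). ADH1B, from 99304964 to 99352760, had 0 counts in both, so no ratio was computed, and its level was at most 3 counts in each library. All 3 lie on the minus strand. ADH1A and ADH1C were thus at the limit of detection in MAEL WT and detected in MAEL KO, and the intervals of their ratios overlapped. With 1 added to the counts, the log2 fold changes were 5.33 for ADH1C and 4.06 for ADH1A. These values depend on the added count, and ranged from 3.78 to 6.21 for ADH1C and from 2.61 to 4.93 for ADH1A over other scalings and added counts. The lower ends of the log2 intervals were 3.84 and 2.48. Taken as 1 unit, the 3 genes had 2 and 100 counts, a 57.8-fold ratio (95% interval 15.6 to 484).

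The ADH1 genes are close copies, and the values of each rest on reads that could be assigned to it. Of all stretches of 100 bases in its GENCODE 29 transcripts, ADH1C shared 5.35% with other genes, ADH1A 4.62% and ADH1B 1.01%. Both strands were compared, so the ADH1A share takes in its antisense gene AP002026.1 as well as ADH1B. With stretches of 50 bases the shares were 18.9% for ADH1C, 16.5% for ADH1A and 4.58% for ADH1B. In this annotation the ADH1B model reaches across ADH1C on the same strand, and 103 exonic bases, 5.54% of those of ADH1C, belong to both genes. Of the exonic bases of ADH1A, 264 (11.7%) lie opposite exons of the antisense gene AP002026.1, which had 54 counts in MAEL WT and 79 in MAEL KO. Whether strand was used in counting, and how reads shared between genes were assigned, is not given in the sources used here, so the split among the 3 ADH1 genes, and the part of their reads that could come from the antisense gene, is uncertain.

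ADH4, ADH5 and ADH6, the other ADH members, were counted well above the floor in both libraries. ADH6, the class V gene, whose enzyme is little characterized, lies from 99202638 to 99219537 and went from 179 to 630 counts (log2 fold change 2.02, 95% interval 1.78 to 2.27). Its interval crossed the threshold of 2. ADH5, the class III enzyme, present in nearly all tissues, oxidizes the glutathione adduct of formaldehyde and reduces S-nitrosoglutathione. It lies from 99070978 to 99088801 and went from 1995 to 4396 counts (log2 fold change 1.35, 95% interval 1.27 to 1.43), or 2.55-fold. ADH4, the class II enzyme of liver, which acts on ethanol at high concentration and on retinol, lies from 99123657 to 99157792 and went from 121 to 164 counts (log2 fold change 0.64, 95% interval 0.30 to 1.00). The intervals of these 3 genes did not overlap, so ADH6, ADH5 and ADH4 differed in their fold changes by more than counting error. ADH5 was exceeded by 5.75% of tested genes and ADH4 by 18.8%. In ADH5, 0.55% of the stretches of 100 bases also occur in another gene, the pseudogene ADH5P4, and 75 exonic bases of ADH6 lie opposite AP002026.1.

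The ALDH members with ample counts had close to equal fold changes, whatever their level. ALDH1A1, on chromosome 9 from 72900662 to 73080442 on the minus strand, went from 20246 to 29516 counts (log2 fold change 0.75, 95% interval 0.73 to 0.78), or 1.69-fold. ALDH2, the mitochondrial acetaldehyde dehydrogenase, on chromosome 12 from 111766887 to 111817529 on the plus strand, went from 2157 to 3278 counts (log2 fold change 0.81, 95% interval 0.74 to 0.89), or 1.76-fold. ALDH1B1, a mitochondrial enzyme close to ALDH2 that also acts on acetaldehyde and retinal, lies on chromosome 9 from 38392664 to 38398661 on the plus strand and went from 1946 to 3073 counts (log2 fold change 0.87, 95% interval 0.79 to 0.95), or 1.83-fold. The intervals of ALDH1A1 and ALDH2 overlapped, as did those of ALDH2 and ALDH1B1, while those of ALDH1A1 and ALDH1B1 did not. Between 12.8% and 15.6% of tested genes exceeded these 3. Of the stretches of 100 bases in ALDH2, 5.87% are shared with other genes. These are F2R, whose counts were not examined here, and AC002996.1, which had 0 counts in both libraries. ALDH3A1, on chromosome 17 from 19737984 to 19748943, encodes an enzyme of aromatic and fatty aldehydes that is abundant in cornea. It had 7 and 12 counts, and its log2 value of 0.89 had a 95% interval from -0.47 to 2.57, so a difference was not detectable at this depth.

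Among the 5516 genes with at least 1000 counts in 1 library, a filter chosen after seeing the data, the share above 0 was 61.8%, above 1 it was 10.5% and above 2 it was 1.52%, while 5.08% were below -1 and 1.05% below -2. The 4 members in that class, ALDH1A1, ALDH1B1, ALDH2 and ADH5, were all above 0, ADH5 alone was above 1, and none was above 2 or below -1. The median log2 fold change of those genes was 0.18, against 0.84 for the 4 members.

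**Figure D2:**
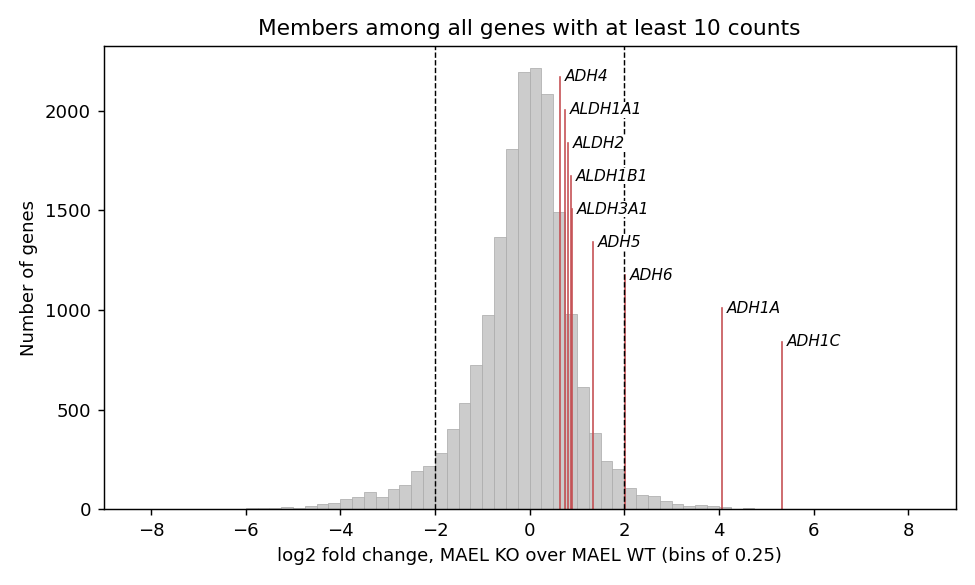
Number of genes (y axis) by log2 fold change of MAEL KO over MAEL WT (x axis, bins of 0.25) for the 17887 tested genes, with the 9 tested members as red lines and dashed lines at -2 and 2. The ALDH members and ADH4 sit on the right shoulder of the distribution between 0.64 and 0.89, and ADH1A and ADH1C lie in its far right tail.

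Levels were compared between genes only per length, as deposited FPKM (fragments scaled by exon length and by library size), with exact Poisson 95% intervals. ALDH1A1 was by far the highest member, at 325 FPKM in MAEL WT (320 to 329) and 546 in MAEL KO (540 to 553), which ranked it 63 and 57 among all listed genes. It was followed in both libraries by ALDH1B1, at 28.2 and 51.4 FPKM, ADH5, at 18.7 and 47.7, and ALDH2, at 10.1 and 17.8. The intervals of these 4 genes did not overlap within either library, although ALDH1B1 (49.6 to 53.2) and ADH5 (46.3 to 49.1) came close in MAEL KO. ADH4 and ADH6 followed. In MAEL WT they were at 2.26 FPKM (1.87 to 2.69) and 1.86 (1.6 to 2.15), which overlapped, and in MAEL KO at 3.53 (3.01 to 4.11) and 7.55 (6.97 to 8.16), which did not, so ADH6 stood above ADH4 in MAEL KO only. The ADH1 genes remained lower than both. ADH1C reached 2.01 FPKM (1.57 to 2.54) and ADH1A 0.677 (0.454 to 0.973) in MAEL KO, from 0.0246 and 0.0202 in MAEL WT. ALDH3A1 was at 0.0817 and 0.162 FPKM.

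**Figure D3:**
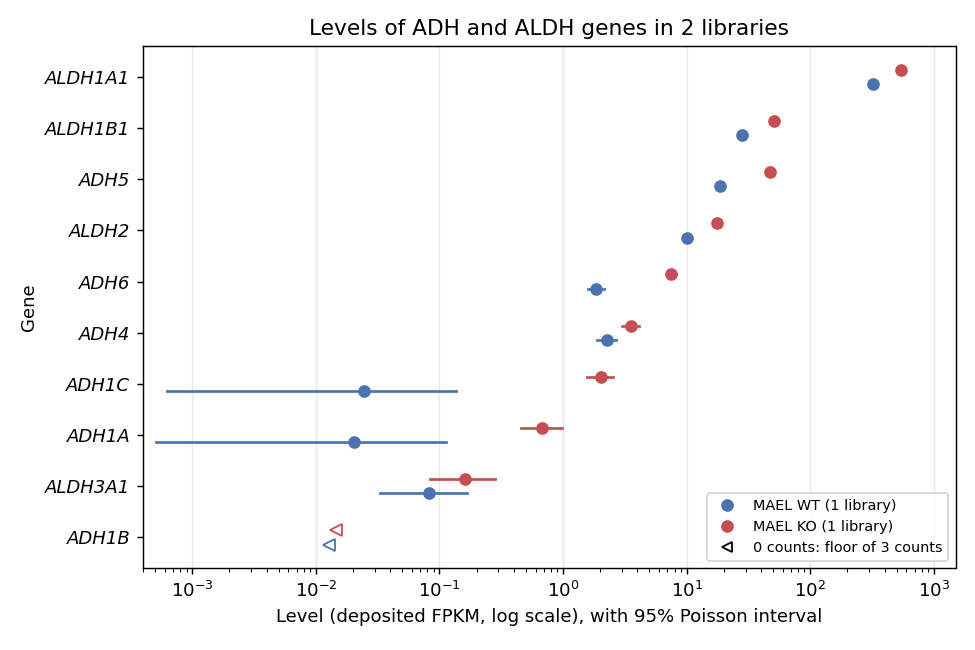
Level of each member in deposited FPKM (x axis, log scale) in MAEL WT (blue) and MAEL KO (red), 1 library each, with exact Poisson 95% intervals and an open triangle at the floor of 3 counts for ADH1B. ALDH1A1 stands at 325 and 546 FPKM, and ADH6 lies clearly above ADH4 in MAEL KO only.

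The makeup of the members was compared as shares of the summed FPKM of the ADH members and of the ALDH members. Other ALDH genes are outside these sums, such as ALDH18A1 at 40.5 and 65.8 FPKM and ALDH1L2 at 13.2 and 1.33. The sum of the 6 ADH members was 22.9 FPKM in MAEL WT and 61.4 in MAEL KO, and that of the 4 ALDH members was 363 and 616. ADH5 took 81.8% of the ADH sum in MAEL WT and 77.6% in MAEL KO. ADH6 went from 8.12% to 12.3%, ADH4 from 9.85% to 5.74%, ADH1C from 0.107% to 3.28% and ADH1A from 0.0884% to 1.10%, with ADH1B at 0 counts. The MAEL WT shares of ADH1C and ADH1A rest on 1 count each, under the floor of 3 counts. Thus the ADH transcripts were mostly those of ADH5 in both libraries. ALDH1A1 took 89.4% and 88.7% of the ALDH sum, ALDH1B1 7.76% and 8.34%, and ALDH2 2.79% and 2.89%, so the makeup of the ALDH members was nearly equal in the 2 libraries.

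All 6 ADH members lie side by side on chromosome 4, over 282 kb from 99070978 to 99353027 and on the minus strand, while the ALDH members are on chromosomes 9, 12 and 17. The ADH genes of the cluster did not share 1 fold change, with log2 fold changes from 0.64 for ADH4 to 5.33 for ADH1C. Of the 8 protein-coding neighbours with a lowest coordinate within 500 kb of that of a member, 4 were tested. MTTP, which loads lipid onto apolipoprotein B, went from 101 to 502 counts (log2 fold change 2.51, 95% interval 2.21 to 2.85). On the other side of the cluster, EIF4E, the cap-binding factor of translation, went from 788 to 1302 counts (log2 fold change 0.93), and METAP1, a methionine aminopeptidase, from 945 to 1340 (0.71). TRMT10A, a tRNA methyltransferase next to MTTP, had 176 and 170 counts (log2 fold change 0.16, 95% interval -0.15 to 0.47), with the opposite sign when scaled by total counts. The gene models of TRMT10A and MTTP overlap at their starts on opposite strands. The remaining neighbours were at or near 0, with 0 counts in both libraries for ADH7, the class IV gene of stomach and esophagus, C4orf17 and DAPP1, and 2 and 0 counts for C4orf54. The log2 fold changes of the 4 tested neighbours thus ran from 0.16 to 2.51, and the intervals of EIF4E (0.81 to 1.06) and METAP1 (0.59 to 0.84) overlapped each other and that of ADH4.

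**Figure D4:**
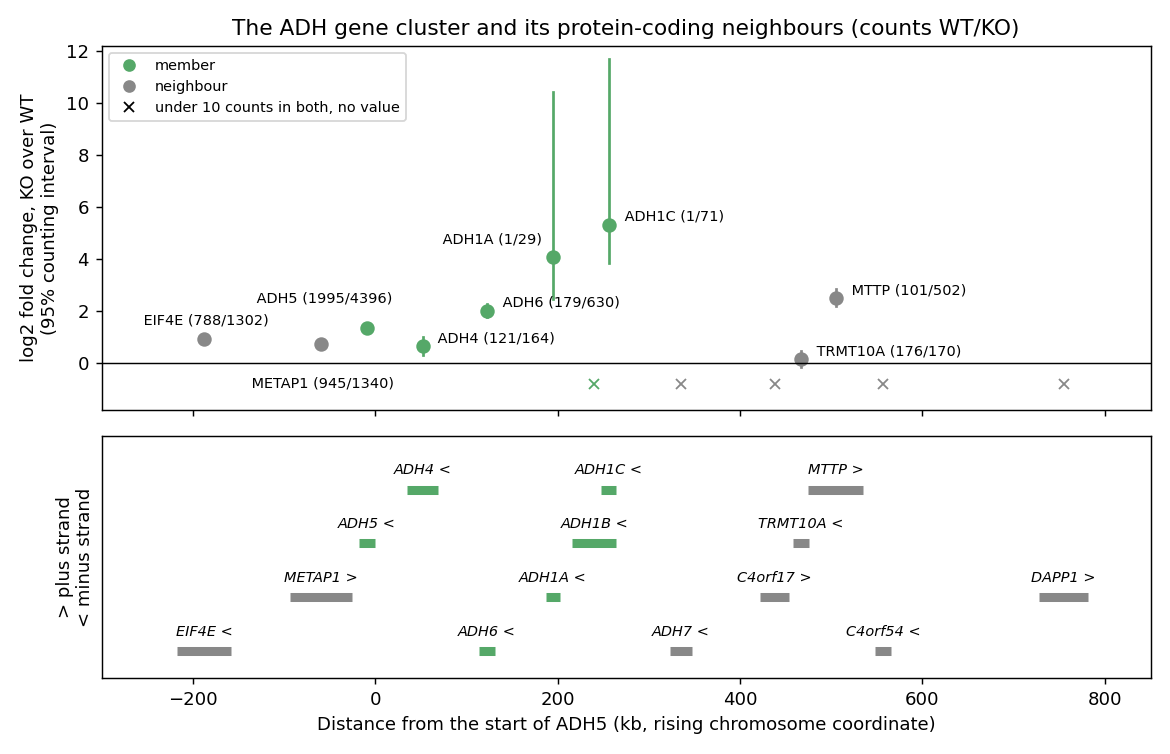
Log2 fold change of MAEL KO over MAEL WT (upper y axis, 95% counting intervals, counts in brackets) and extent of each gene (lower rows) against distance from the start of ADH5 in kb, for the 6 ADH members (green) and 8 protein-coding neighbours (grey). ADH1A and ADH1C stand at 4.06 and 5.33, MTTP at 2.51, and crosses mark the 5 genes without a value.

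The rest of the family was read from a list of 16 other ADH and ALDH genes. Of these, 12 were tested, 10 were above 0, 1 was above 2 and 1 below -2, against 48%, 2.16% and 5.64% of all tested genes, and the median was 0.76. The gene above 2, ALDH1L1, entered through its MAEL KO counts alone. The other 11 had at least 10 counts in both libraries, and none of them was above 2. The genes past 2 were a pair with the same reaction, the oxidation of 10-formyltetrahydrofolate in one-carbon metabolism, in different compartments. ALDH1L2, the mitochondrial enzyme, went from 2463 to 215 counts (log2 fold change -3.30, 95% interval -3.52 to -3.11). ALDH1L1, the cytosolic enzyme that is abundant in hepatocytes, went from 5 to 46 counts (log2 fold change 3.16, 95% interval 2.09 to 5.1). Their levels were 13.2 and 1.33 FPKM for ALDH1L2 and 0.0167 and 0.177 FPKM for ALDH1L1, so ALDH1L2 was the higher of the pair in both libraries.

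Past 1 were also ALDH4A1, a mitochondrial enzyme of proline breakdown, from 243 to 647 counts (log2 fold change 1.62), and ALDH7A1, an enzyme of lysine breakdown, from 1500 to 3009 (1.21). ALDH1A2, which like ALDH1A1 makes retinoic acid, was lower, from 168 to 64 counts (log2 fold change -1.17, 95% interval -1.62 to -0.76), and ALDH1A3, the other enzyme of this kind, was at 0 counts in both. Among the retinal oxidizing ALDH1A genes, ALDH1A1 thus held nearly all of the level in both libraries, with ALDH1A2 at 0.891 and 0.392 FPKM.

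For the other steps of ethanol, acetate and formaldehyde metabolism, 7 genes were listed and tested, of which 4 were above 0 and none was past 2 in either direction, with a median of 0.11, the value of CYP2E1, which turned to -0.16 with scaling by total counts. CAT, the peroxisomal catalase, which can oxidize ethanol with hydrogen peroxide, went from 873 to 2803 counts (log2 fold change 1.89, 95% interval 1.78 to 2.0). ESD, the hydrolase that acts after ADH5 on the formaldehyde adduct, went from 647 to 1320 (1.24, 95% interval 1.10 to 1.38). CYP2E1, the microsomal ethanol oxidizing enzyme, had 45 and 42 counts, and the 95% interval of its log2 value of 0.11 ran from -0.53 to 0.75. ACSS2, which turns acetate into acetyl-CoA in cytosol and nucleus, went from 2542 to 1634 (-0.43), and AKR1A1, an NADPH-dependent aldehyde reductase, from 3009 to 2190 (-0.25). The genes around the ethanol pathway therefore did not all lie on the side of the ADH and ALDH members.

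Of 34 other genes of retinoid transport, metabolism and signalling, 28 were tested, of which 14 were above 0 and 14 below, and the median was -0.08. With scaling by total counts the median was -0.35, and RDH13, DHRS4, RARB, RXRA and RXRB fell below 0 as well. With TMM, 3 were above 2 and 3 below -2, against 2.16% and 5.64% of all tested genes. The 3 below -2 entered through their MAEL WT counts alone. Of the 28, 24 had at least 10 counts in both libraries, and none of those was below -2. Above 2 were TTR, the plasma carrier of retinol-binding protein and also 1 of the hepatocyte markers, from 20 to 155 counts (log2 fold change 3.10), CYP26A1, which breaks down retinoic acid, from 17 to 80 (2.37), and FABP5, a carrier of fatty acids and retinoic acid, from 1681 to 6032 (2.05, 95% interval 1.98 to 2.13). Below -2 were STRA6, a receptor for retinol uptake, from 37 to 3 counts (a ratio 10.7-fold lower, 95% interval 3.38 to 54.0), CYP26B1, a relative of CYP26A1, from 65 to 6 (-3.04), and LRAT, which makes retinyl esters, from 33 to 6 (-2.09). Apart from FABP5 these genes had at most 155 counts. FABP5 came to 1.78 with scaling by total counts and LRAT to -1.64 with 5 added to the counts, so each was then within the threshold. RDH10 and RDH11, which interconvert retinol and retinal, had 1235 and 953 counts (-0.16) and 3970 and 4222 counts (0.30).

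**Figure D5:**
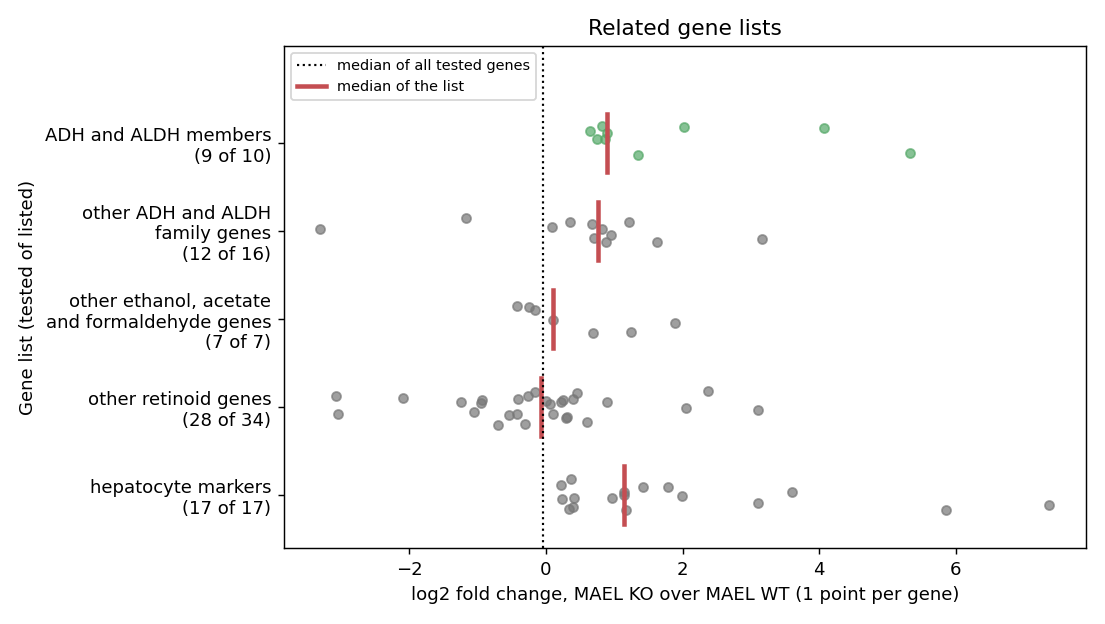
Log2 fold change of MAEL KO over MAEL WT (x axis) of each tested gene (points) in 5 lists, with the median of each list as a red bar and the median of all tested genes, -0.04, as a dotted line. The medians are 0.89 for the members, which is the point of ALDH3A1, and 0.76 for other ADH and ALDH genes. They are 0.11 for other ethanol, acetate and formaldehyde genes (-0.16 with total counts), -0.08 for other retinoid genes (-0.35 with total counts) and 1.15 for hepatocyte markers.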

How the data were processed

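RNA of PLC8024 cells was sequenced on a HiSeq platform, with 1 library of MAEL WT and 1 of MAEL KO cells. The submitters' processing notes name HISAT2 2.0.5 and featureCounts 1.5.0-p3, with no parameters. The notes name hg19, whereas start and end of all 10 members in the deposited tables are those of GENCODE 29 on GRCh38, and coordinates are given on GRCh38. The authors deposited counts per gene, whole numbers without normalization, and FPKM values. In each library these FPKM are the counts over gene length and 1 library size, 1.10 times the total counts for MAEL WT and 0.91 times for MAEL KO. All 4 columns of sample values were used.

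TMM factors (1.10 and 0.909) came from edgeR 4.0.16 in R 4.3.3, with DESeq2 1.42.0 for other size factors. Folds, Clopper-Pearson and Poisson intervals at 95% were computed in Python 3.11.15 with SciPy 1.17.1, and promoters were aligned in Biopython 1.88. No p-value is given, since replicates are lacking. A gene with 1 to 3 counts in 1 library is given as a ratio with its interval. The steps were tested on simulated data with counting error only. The changed genes and the intervals checked there were those of well-counted genes. Ratios that rest on 1 count, as for ADH1A and ADH1C, were not covered.

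The members, gene lists and tests were chosen with earlier results of these data known. Named are all members, list genes past a log2 fold change of 2 or else up to 2 at each end with at least 100 counts, and all protein-coding neighbours of the ADH cluster. ALDH1A2, ALDH1A3, ALDH4A1, ALDH7A1, ALDH18A1, CYP2E1, RDH10, RDH11, AP002026.1, ADH5P4, AC002996.1 and the markers named beside ALB were chosen after their values were seen. F2R is named for the bases it shares with ALDH2.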

Additional observations from a re-analysis of the deposited data

How the results depend on the processing

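Every tested member kept a log2 fold change above 0 under total counts, DESeq2 size factors, FPKM ratios (0.01 added) and added counts of 0.1 and 5. Of 47 member values under these settings and with the ADH1 genes summed, 41 stayed within their counting interval and 6 did not, 5 of them with total counts and the other for ADH1C with 5 added (3.78). These settings are not separate checks. DESeq2 size factors and FPKM ratios each moved the median of all tested genes by -0.0041, so they scale nearly as TMM does. Total counts moved it by -0.27, and 5 of the 9 tested members then left their interval. The range over these settings was 2.61 to 4.93 for ADH1A and 3.78 to 6.21 for ADH1C. ADH6 was at 1.74 with total counts and at 1.99 with 5 added, which left 2 members past the threshold under each. The members' median was 0.64 with total counts, and that of the ethanol, acetate and formaldehyde genes turned from 0.11 to -0.16. The median of the retinoid genes went from -0.08 to -0.35 with total counts. FABP5 (1.78 with total counts) and LRAT (-1.64 with 5 added) were then within the threshold.

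Among the 12023 genes with at least 100 counts in 1 library, 1 member was past 2, and 185 genes in all were higher and 283 lower. Of other family genes 0 were higher and 1 lower, and of retinoid genes 2 were higher and 0 lower. Among the 5516 genes with at least 1000 counts, a setting chosen after seeing the data, 4 members were above 0 and 0 past 2. Of other family genes 0 were higher and 1 lower, and of retinoid genes 1 was higher and 0 lower. In all, 84 genes (1.52%) were higher and 58 (1.05%) lower. Of the 17887 tested genes, those past the threshold numbered 387 higher and 1008 lower, 269 and 1309 with total counts, and 250 and 513 with 5 added. Without a count filter they numbered 1029 and 1773 of all 58735 genes. With at least 10 counts and a log2 threshold of 1, 1827 genes were higher and 2951 lower, or 10.2% and 16.5% of tested genes. Of the 12 tested other family genes, 3 were then higher and 2 lower. Of the 7 ethanol, acetate and formaldehyde genes, 2 were higher and 0 lower. Of the 28 tested retinoid genes, 3 were higher and 5 lower.

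With total counts, 8 genes that are no members changed sign, ALDH3B1 (-0.18), CYP2E1 (-0.16), RDH13 (-0.17), DHRS4 (-0.22), RARB (-0.0213), RXRA (-0.058), RXRB (-0.27) and TRMT10A (-0.12). The filters and the threshold change these counts by their construction. No library could be left out, and no paired analysis was possible because there is 1 library per condition. Depth limits ADH1B and ALDH3A1, and the size of the ratios of ADH1A and ADH1C.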
